A study of Mus musculus with 24 samples.

Results

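The step described is the second hour after antigen removal in basophils that lack tristetraprolin (TTP, the product of Zfp36). Its members are the 3 TTP-KO libraries taken 2 h after the antigen was washed away and the 3 TTP-KO libraries taken at 1 h, 6 of the 24 libraries of the series, chosen by genotype and time alone. All 24 libraries came from mouse bone marrow cultured for 7 days with 0.3 ng/mL interleukin-3 (IL-3), loaded on day 6 with IgE against the hapten TNP (1 ug/mL) and with the nucleoside 4-thiouridine (s4U, 150 uM), and enriched on day 7 for cells bearing CD49b. The cells were exposed to TNP-conjugated ovalbumin (TNP-OVA, 10 ng/mL) with s4U for 1.5 h, washed, and kept without either for 0, 1, 2 or 4 h. Of each genotype, WT and TTP-KO, 3 libraries were made per time, and the second hour in WT (3 libraries at 2 h and 3 at 1 h) serves as the comparison. The s4U exposure, the IgE and the antigen were therefore common to every group, and no unstimulated group was used here. The labels give neither the TTP allele nor the number of mice behind a library, so p-values measure only how these libraries vary, and that variation may be technical.

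TTP is a zinc-finger protein that binds AU-rich elements in the 3' untranslated region (UTR) of short-lived mRNAs and recruits the enzymes that shorten the poly(A) tail, after which the mRNA is degraded. Its best-known targets encode cytokines, chemokines and growth factors. Basophils are rare granulocytes that carry the high-affinity IgE receptor; when antigen crosslinks that receptor, calcium and kinase signalling drives rapid transcription of Il4, Il13, Il6, Tnf and chemokine genes. Once antigen is withdrawn, transcription declines, and the level of each mRNA then depends on both its remaining synthesis and its decay. The series was set up to measure how loss of TTP affects mRNA stability after such stimulation; the values below are total 3' tag counts per gene at each time, not half-lives, and the labelled-read measures were not used here.

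The 6 TTP-KO libraries held 14749320 to 19842418 reads, and all 24 held 8839260 to 25372890. Levels are given as CPM (counts divided by a library's total and put on a common total) after TMM scaling. That scaling sets the libraries level on the bulk of their genes. Each library counted 3' ends. The tests compare each gene between libraries, and how evenly the tags of different genes were captured was not tested, so levels of different genes compare only roughly. Basophil markers were abundant at 1 h in TTP-KO, with mean levels of 14732 CPM for Mcpt8 (a basophil granule protease), 11608 CPM for Prss34 (another), 12442 CPM for Hdc (the histamine-forming enzyme) and 1664 CPM for Gata2 (a basophil transcription factor). Itga2, which encodes CD49b, stood at 19.0 CPM. Cd3e, Ncr1 and Ms4a1, which define T, natural killer and B cells, had 0 reads in all 3 libraries at 1 h and at most 2.22 CPM (Ms4a1) at 2 h. Apoe, a macrophage gene, stood at 304 CPM, and summed over the 21 monocyte and macrophage markers tested the level was 2606 to 2886 CPM at 1 h and 2063 to 2416 CPM at 2 h. The 16 neutrophil markers tested summed to 4699 to 5302 CPM at 1 h and 3974 to 4756 CPM at 2 h, the 14 dendritic and B cell markers to 638 to 737 CPM and 541 to 597 CPM, and the 10 natural killer and T cell markers to 93.8 to 117 CPM and 107 to 128 CPM. The 13 erythroid and progenitor markers summed to 2879 to 3096 CPM at 1 h and 2489 to 2919 CPM at 2 h. For 9 eosinophil markers the sums were 280 to 340 CPM and 253 to 261 CPM, and for 6 mast cell markers 132 to 158 CPM and 146 to 154 CPM. The part of such cells in the changes below was not tested. Zfp36 itself was read at 36.0, 44.4 and 58.5 CPM in the TTP-KO libraries at 1 h and 41.9, 27.1 and 51.1 CPM at 2 h, against 147, 128 and 104 CPM in WT at 1 h and 73.3, 74.5 and 78.8 CPM at 2 h. At 1 h and at 2 h every TTP-KO library lay below every WT library of the same time. In TTP-KO at 0 h Zfp36 was at 158, 210.1 and 186 CPM, a time for which WT levels are not given here. Its change from 1 to 2 h in TTP-KO was not called (log2 change -0.21 ± 0.24, edgeR adjusted p = 0.853). The sources used here do not say where in Zfp36 the disruption lies, so tags from its 3' end are no full check of the labels.

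The sequence feature most closely tied to TTP is the AU-rich nonamer TTATTTATT, or its core heptamer TATTTAT. The sites below, 1 for most genes, are the first found in the longest annotated 3' UTR of genes on which the results turn, read from GENCODE transcripts of the GRCm38 build, which is not the build named for the deposited counts. Capitals mark the motif and the letters run 5' to 3' along the mRNA. The first 6 come from genes that fell in the second hour: Tnf (chr17:35199689-35199717, minus strand), Ptgs2 (chr1:150105790-150105818, plus strand), Plk3 (chr4:117128718-117128746, minus strand), Serpinb2 (chr1:107525197-107525225, plus strand), Lif (chr11:4272039-4272067, plus strand) and Il13 (chr11:53631741-53631769, minus strand).
Tnf: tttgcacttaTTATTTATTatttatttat
Ptgs2: ctgaccatatTTATTTATTtatgtgaaga
Plk3: tggaccacttTTATTTATTaacagacatt
Serpinb2: ttttacagtgTTATTTATTgtttatataa
Lif: aaaggggcctTTATTTATTatttaaaact
Il13: cttcttgatcTTATTTATTatggttgtgt

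The same nonamer stands in genes that rose or that did not pass the test, which is why these are shown beside them. Pim1 (chr17:29495689-29495717, plus strand), Hk2 (chr6:82725901-82725929, minus strand) and Vegfa (chr17:46017166-46017194, minus strand) were higher at 2 h, and Zfp36l2 (chr17:84184914-84184942, minus strand) was not called.
Pim1: tttaatgtatTTATTTATTtatttatttg
Hk2: tttatacgagTTATTTATTccagactgtt
Vegfa: ttgttatcatTTATTTATTggtgctactg
Zfp36l2: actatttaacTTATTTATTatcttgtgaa

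Other cytokine and chemokine genes hold the heptamer but not the nonamer, with capitals marking TATTTAT. Il4 (chr11:53612496-53612522, minus strand) has 2 such heptamers in a 3' UTR of 104 bases, Il6 (chr5:30019729-30019755, plus strand) and Ccl3 (chr11:83648004-83648030, minus strand) are shown with 1 each, and Il1b (chr2:129364809-129364835, minus strand) has 3 in close succession.
Il4: ttatttttaaTATTTATatatttataa
Il6: ttatgattgaTATTTATtatttttatg
Ccl3: tatttgtgacTATTTATtctgaaagac
Il1b: accacttaccTATTTATttatgtattt

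Between 1 and 2 h, some genes fell in TTP-KO basophils and others rose. Chemokine, cytokine and immediate early genes were among those that fell, with Ccl4, Csf1, Tnf, Ptgs2 and Egr3 as examples, while Il1b, Pim1, Cebpb, Tnfrsf9 and Rnf125 rose. Of 12936 genes tested with edgeR's quasi-likelihood test (threshold 0.05 after Benjamini-Hochberg adjustment), 271 were lower at 2 h (2.09% of genes tested) and 119 were higher (0.920%). The median change was -0.79 on the log2 scale among the lower genes and 0.97 among the higher genes, against 0.01 over all genes tested. By more than 2-fold, 91 genes were lower and 56 higher.

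The genes that fell had more reads than most: their median level was 202 CPM, against 65.4 CPM for the genes that rose and 12.6 CPM for all tested. Together the lower genes went from 232728 to 139645 CPM and the higher genes from 10875 to 18666 CPM. The split depends on the scaling: with libraries scaled by their totals alone the calls were 146 lower and 307 higher, and the median over all genes moved from 0.01 to 0.18. TMM factors were 0.919 to 0.922 in the 1 h libraries and 1.02 to 1.04 in the 2 h libraries. In bulk libraries such as these, fewer cells carrying a transcript and less of it per cell cannot be told apart.

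**Figure D1:**
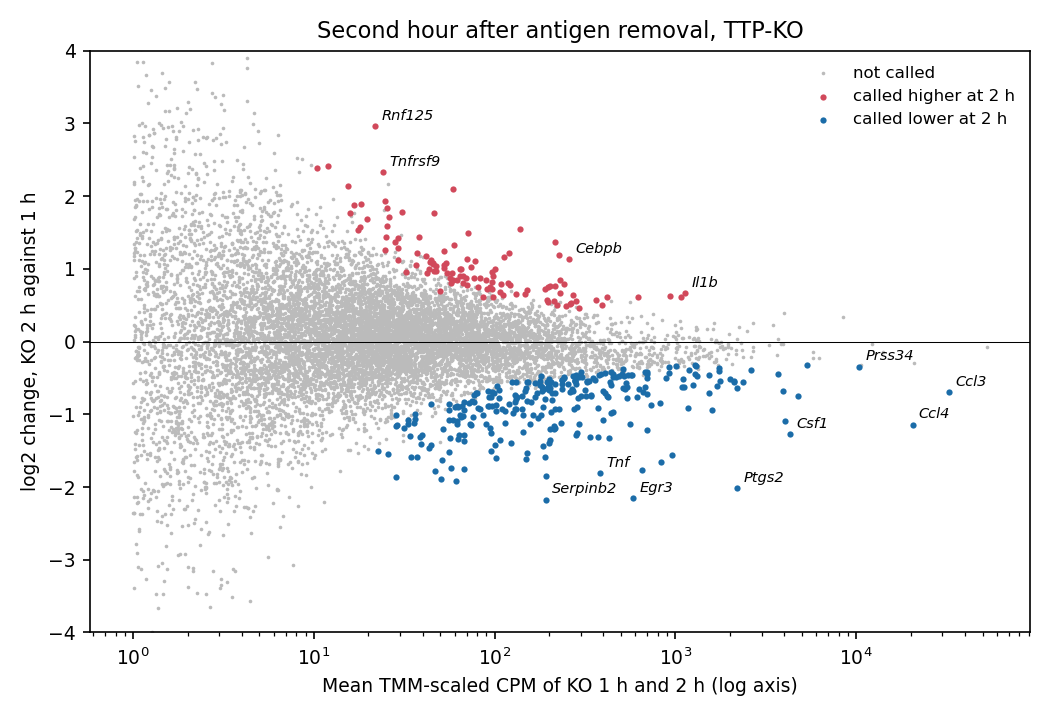
Each point is a gene with a mean level of at least 1 CPM in TTP-KO at 1 and 2 h (x axis, log scale) against its log2 change from 1 to 2 h (y axis, shown from -4 to 4); blue genes were called lower and red genes higher. Genes beyond those limits are not drawn; the genes called lower reach the abundant end, where Ccl3 and Ccl4 stand, and most called higher lie toward the middle.

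The summed level of secreted mediators was lower at 2 h in every library. Summed over the 35 cytokine and chemokine genes tested, the level was 121772 to 124418 CPM in the 1 h libraries and 78028 to 82814 CPM in the 2 h libraries. Ccl3 and Ccl4 weigh heavily in that sum and in its fall, with means going from 40204 to 24913 CPM and from 28211 to 12794 CPM. The sum therefore does not speak for secreted mediators in general, and 19 of the 35 genes had a log2 change below 0. Of the 35, 10 fell (Areg, Ccl3, Ccl4, Csf1, Cxcl2, Il13, Il6, Lif, Tnf and Tnfsf14) and 3 rose (Ccl24, Il1b and Vegfa), with a median of -0.18, or -0.02 when scaled by library totals. Counts in this and the later gene lists stand beside 2.09% called lower and 0.920% called higher over all genes tested. No list was tested as a set.

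The chemokines Ccl3 and Ccl4 recruit monocytes and lymphocytes. Ccl3 was at 43099, 41361 and 36151 CPM in the 3 libraries at 1 h and 25159, 23718 and 25862 CPM at 2 h. Ccl4 went from 26479, 28357 and 29797 CPM to 12923, 13623 and 11835 CPM. Every 2 h library lay well below every 1 h library for both genes. The log2 changes were -0.69 ± 0.09 for Ccl3 and -1.14 ± 0.10 for Ccl4 (± SE, n = 3 and 3, edgeR adjusted p = 1.61e-07 and 4.65e-12). Cxcl2, a neutrophil attractant, had 5063, 4827 and 4687 CPM at 1 h and 3241, 2939.8 and 2926 CPM at 2 h, a log2 change of -0.68 ± 0.10 (edgeR adjusted p = 6.63e-06).

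Tnf, the inflammatory cytokine whose mRNA is the classical TTP target, was at 582, 619 and 590.1 CPM at 1 h and 168, 152 and 192 CPM at 2 h. The 3 libraries at each time lay close together and the times did not overlap. That is a log2 change of -1.81 ± 0.15 (edgeR adjusted p = 1.33e-12). Lif, a cytokine of the IL-6 family, fell from 175, 170.1 and 188 CPM to 69.4, 60.5 and 72.9 CPM (log2 change -1.40 ± 0.19, edgeR adjusted p = 1.11e-06). Csf1, the growth factor of macrophages, fell from 6538, 6032 and 5670.2 CPM to 2521, 2573 and 2471 CPM, with no overlap (log2 change -1.27 ± 0.09, edgeR adjusted p = 3.24e-15).

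Of the type 2 cytokines, Il13 fell and Il4 was not called. Il13, which drives mucus and IgE responses, was at 617, 782 and 918 CPM at 1 h and 378, 358 and 323 CPM at 2 h; the 1 h libraries were spread but all stood above the 2 h libraries (log2 change -1.13 ± 0.20, edgeR adjusted p = 0.000109). Il4, the main type 2 cytokine of basophils, was at 5809, 6109.5 and 6718 CPM at 1 h and 5753, 4956 and 5254 CPM at 2 h. Its highest 2 h library lay just under its lowest 1 h library, and the log2 change of -0.22 ± 0.11 did not pass the test (edgeR adjusted p = 0.399). Il6, a pleiotropic inflammatory cytokine, went from 4400.4, 4348 and 3981 CPM to 3289, 3032 and 3021 CPM without overlap, a log2 change of -0.45 ± 0.09 (edgeR adjusted p = 0.000439). Areg, an epidermal growth factor family member tied to tissue repair, fell from 1918, 1982 and 1795 CPM to 1319, 1128 and 1049.7 CPM (log2 change -0.70 ± 0.11, edgeR adjusted p = 1.71e-05).

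Other mediators rose or did not pass the test. Il1b, an inflammatory cytokine, rose from 946, 958 and 718 CPM to 1279, 1242 and 1649 CPM, with all 2 h libraries above all 1 h libraries (log2 change 0.67 ± 0.13, edgeR adjusted p = 0.000896). Ccl24, an attractant of eosinophils, rose from 4.82, 3.71 and 2.80 CPM to 23.0, 11.5 and 26.2 CPM (log2 change 2.42 ± 0.69, edgeR adjusted p = 0.0388). The angiogenic factor Vegfa rose from 15.9, 4.09 and 3.01 CPM to 21.4, 31.2 and 33.4 CPM (log2 change 1.90 ± 0.50, edgeR adjusted p = 0.0197). The calls of Ccl24 and Vegfa rest on low levels. Ccl24 did not pass by DESeq2, nor when KO 1 h B, KO 1 h C, KO 2 h A or KO 2 h C was left out (lowest log2 change over the leave-outs 2.19). Vegfa no longer passed when KO 1 h B, KO 1 h C, KO 2 h B or KO 2 h C was left out (lowest 1.52). Osm, an IL-6 family cytokine, had 1683, 1676 and 1413 CPM at 1 h and 1559.8, 1287 and 1346 CPM at 2 h, and Plaur, the urokinase receptor, 291, 288 and 255 CPM and 250.0, 290.5 and 286 CPM. The libraries of the 2 times overlapped for both genes, and neither passed the test (log2 changes -0.19 and -0.01, edgeR adjusted p = 0.485 and 1).

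**Figure D2:**
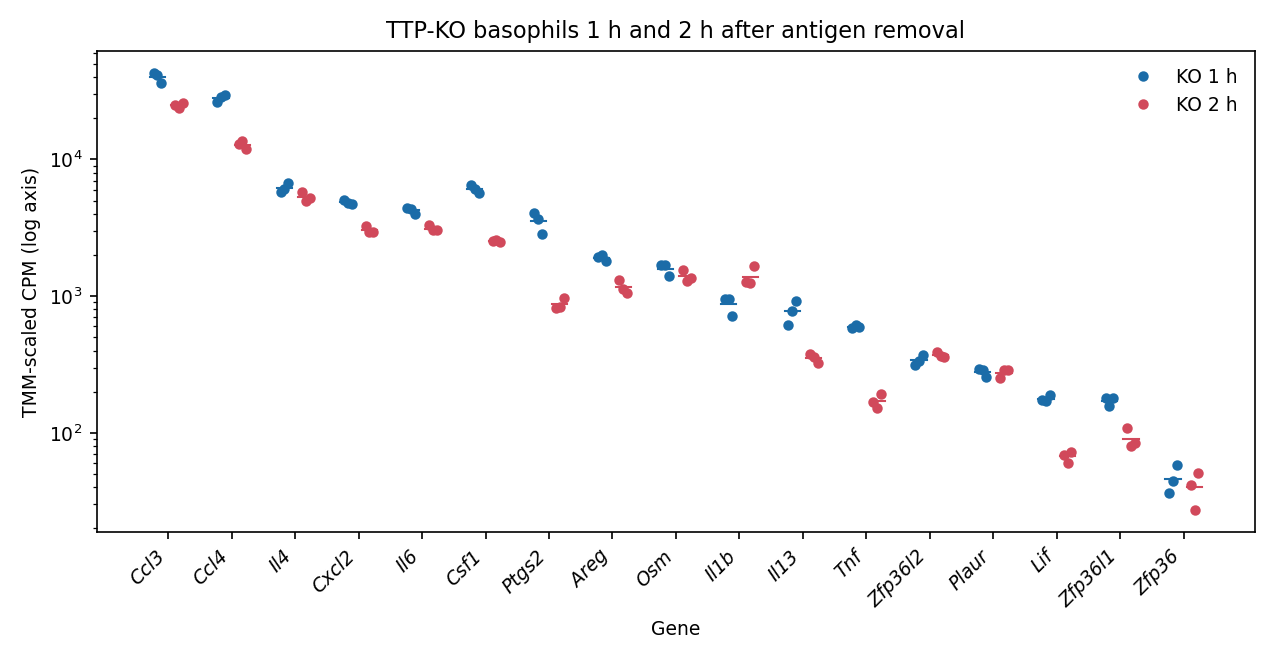
Level of each gene (TMM-scaled CPM, log axis) in the 3 TTP-KO libraries at 1 h (blue) and the 3 at 2 h (red); short lines are group means. Tnf and Ptgs2 show wide gaps between the times, Il1b is the gene called higher, and the points of Osm, Plaur and Zfp36 overlap.

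Several transcription factors and signalling brakes of the immediate early response fell. Of 45 immediate early genes tested, 13 fell (Dusp2, Egr1, Egr2, Egr3, Ier5, Klf10, Mafk, Nr4a1, Nr4a2, Nr4a3, Rgs2, Spry2 and Trib1) and 1 rose (Cebpb), with a median of -0.29, or -0.13 when scaled by library totals. Egr3, a zinc-finger factor induced by calcium signals, was at 865, 1078 and 928 CPM at 1 h and 217, 209 and 219 CPM at 2 h. Its 2 h libraries agreed closely and lay 4.45-fold below the 1 h mean (log2 change -2.15 ± 0.12, edgeR adjusted p = 8.71e-19). The orphan nuclear receptor Nr4a3 fell from 990.1, 1069 and 963 CPM to 261, 322 and 305 CPM and Nr4a1 from 613, 566 and 653 CPM to 241, 219.6 and 268 CPM (log2 changes -1.77 ± 0.17 and -1.33 ± 0.13, edgeR adjusted p = 1.6e-10 and 4.08e-10). Klf10, a repressor induced by TGF-beta, fell from 146, 129 and 148 CPM to 50.6, 50.5 and 47.8 CPM (log2 change -1.50 ± 0.22, edgeR adjusted p = 3.27e-06). Fos, the partner of Jun in the AP-1 factor, was at 25.5, 16.1 and 34.7 CPM and 18.4, 10.1 and 10.8 CPM and Jun at 99.8, 99.1 and 99.8 CPM and 109, 93.3 and 82.4 CPM, and neither was called (edgeR adjusted p = 0.527 and 0.992).

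Cebpb, a factor of myeloid differentiation, went the other way, from 119, 192 and 175 CPM to 356, 384 and 324 CPM (log2 change 1.13 ± 0.17, edgeR adjusted p = 9.69e-06). Its 3 libraries at 2 h all exceeded the highest at 1 h. Among 24 genes of the calcineurin and NFAT response, the calcium-driven arm of IgE receptor signalling, 8 fell (Egr2, Egr3, Il13, Nr4a1, Nr4a3, Ptgs2, Tnf and Tnfsf14) and Cd69, an activation antigen, rose from 75.0, 70.0 and 67.5 CPM to 124, 106 and 126 CPM (edgeR adjusted p = 0.00177). The list's median was -0.36, or -0.20 when scaled by library totals. All 8 that fell are also counted in the cytokine, immediate early or TTP target lists. The calcineurin subunit genes Ppp3ca, Ppp3cb, Ppp3cc and Ppp3r1, the NFAT genes Nfatc1, Nfatc2 and Nfatc3, and Rcan1 were not called. Of 30 genes of NF-kB signalling and its feedback, 3 fell (Ccl3, Ccl4 and Nfkbid) and none rose, with a median of 0.03. Those 3 also stand in the cytokine or TTP target lists. Nfkbia, the inhibitor of NF-kB, had 1331, 1392 and 1416 CPM at 1 h and 1433, 1263 and 1219.5 CPM at 2 h and was not called (edgeR adjusted p = 0.914).

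Among 52 genes reported as TTP targets in earlier work, 17 fell and 4 rose, among them Il1b, Pim1 and Vegfa, with a median of -0.31, or -0.15 when scaled by library totals. In WT, 16 of the same genes were called lower and 2 higher, with a median of -0.48, so the fall was not particular to TTP-KO. Ptgs2, the inducible cyclooxygenase of prostaglandin synthesis, was at 4076, 3643 and 2841 CPM at 1 h and 818, 839 and 963 CPM at 2 h. The 1 h libraries differed among themselves, yet the lowest of them was far above the highest at 2 h. Its mean was 4.03-fold lower at 2 h (log2 change -2.01 ± 0.14, edgeR adjusted p = 2.11e-15). Plk3, a stress-responsive kinase, fell from 1146, 1273 and 1373 CPM to 397, 446 and 357 CPM (log2 change -1.66 ± 0.14, edgeR adjusted p = 1.67e-12). Serpinb2, a plasminogen activator inhibitor outside that list, had the largest fall by the rule for named genes, from 303, 312 and 328 CPM to 56.3, 92.1 and 60.7 CPM (log2 change -2.17 ± 0.16, edgeR adjusted p = 1.12e-14).

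Of the other members of the TTP family, Zfp36l1 fell and Zfp36l2 was not called. Zfp36l1 went from 180.2, 156 and 179.7 CPM to 108, 79.7 and 84.7 CPM without overlap (log2 change -0.92 ± 0.20, edgeR adjusted p = 0.00177). Zfp36l2 had 314, 333 and 369 CPM at 1 h and 393, 363 and 358 CPM at 2 h, overlapping (log2 change 0.13 ± 0.13, edgeR adjusted p = 0.784). Zfp36l1 was the 1 gene called among 47 RNA decay regulators tested, whose median change was 0.03, where 2.09% of all genes tested were called lower. Zc3h12a, the endonuclease Regnase-1, had 34.6, 22.5 and 21.7 CPM at 1 h and 11.6, 14.2 and 25.1 CPM at 2 h and did not pass (edgeR adjusted p = 0.522).

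The rises were led by genes of low level at 1 h. Rnf125, a ubiquitin ligase, went from 6.89, 4.78 and 3.23 CPM to 36.3, 38.6 and 41.6 CPM, 7.79-fold higher (log2 change 2.96 ± 0.43, edgeR adjusted p = 3.81e-06). Tnfrsf9, the costimulatory receptor 4-1BB, went from 6.68, 2.95 and 14.5 CPM to 40.4, 40.1 and 40.2 CPM (log2 change 2.33 ± 0.37, edgeR adjusted p = 2.35e-05). Its 2 h libraries were nearly equal and all above the spread 1 h libraries. Tmem51, a membrane protein, rose from 33.8, 20.1 and 12.7 CPM to 82.0, 92.8 and 111 CPM (log2 change 2.10 ± 0.30, edgeR adjusted p = 3.32e-06). Other genes among the 12 largest rises were Alox8 (a lipoxygenase), Abi3, Etv5, Otub2, Ccl24, Vegfa, and the overlapping pair Gm42742 and Pagr1a, whose nearly equal counts cannot be told apart. Abi3 no longer passed without KO 1 h B, KO 1 h C or KO 2 h C, and neither Etv5 nor Otub2 did without KO 1 h A, KO 1 h B or KO 2 h C.

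Among the abundant genes that rose, Pim1, a survival kinase induced by IL-3, went from 803, 754 and 647 CPM to 1112, 1195 and 1084 CPM (log2 change 0.62 ± 0.11, edgeR adjusted p = 0.000149). Fgl2, a fibrinogen-like protein, went from 929.8, 773 and 827 CPM to 1288, 1294 and 1303 CPM (log2 change 0.62 ± 0.10, edgeR adjusted p = 2.29e-05). For both genes the 2 h libraries agreed within a narrow range and stood above every 1 h library. Of 25 genes of the IL-3 and STAT5 response, 4 rose (Bcl2l1, Ccnd3, Pim1 and Socs1) and 3 fell (Bcl6, Gzmb and Lif), with a median of 0.18, against 0.34 when scaled by library totals. Bcl2l1, which encodes the survival protein BCL-xL, rose from 54.4, 46.1 and 48.0 CPM to 111, 91.6 and 117 CPM (log2 change 1.10 ± 0.20, edgeR adjusted p = 0.000148). Bcl6, a transcriptional repressor, fell from 50.6, 55.7 and 65.1 CPM to 26.5, 19.9 and 18.2 CPM (log2 change -1.41 ± 0.34, edgeR adjusted p = 0.00844).

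Some genes of basophil identity fell as well. Of 36 identity and granule genes, 8 fell (Alox15, Cpa3, Csf1, Fcer1a, Gzmb, Il1rl1, Nfil3 and Prss34) and Cebpa rose, with a median of -0.11, or 0.06 when scaled by library totals. Fcer1a, the IgE-binding chain of the receptor, fell from 305, 305 and 232 CPM to 88.9, 129 and 148 CPM (log2 change -1.21 ± 0.18, edgeR adjusted p = 7.3e-06). Il1rl1, the receptor for IL-33, fell from 2162, 1984 and 2044 CPM to 1354, 1409 and 1272 CPM (log2 change -0.62 ± 0.10, edgeR adjusted p = 3.16e-05). Prss34 fell from 11942, 11549 and 11332 CPM to 9139, 9150.3 and 9169.6 CPM, a smaller change (log2 change -0.34 ± 0.07) that did not pass when libraries were scaled by their totals. Mcpt8, Hdc and Gata2 were not called (edgeR adjusted p = 0.377, 0.986 and 1).

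Of 33 genes of the actin cytoskeleton, 7 fell (Actg1, Ezr, Flna, Lcp1, Pfn1, Vcl and Vim) and none rose, with a median of -0.20, or -0.03 when scaled by library totals. Actg1, a cytoplasmic actin, fell from 6569, 6001 and 5333 CPM to 3516, 3561 and 3621 CPM without overlap (log2 change -0.74 ± 0.09, edgeR adjusted p = 1.14e-07), and Vim, the intermediate filament protein vimentin listed with them, from 2964, 2639 and 2444 CPM to 1817, 1652 and 1696 CPM. Of 79 cytosolic ribosomal protein genes, 72 were below 0 and 3 were called lower (Rpl10, Rpl29 and Rplp0), with a median of -0.17 that became -0.01 when scaled by library totals. Over all genes tested, 2.09% were called lower and the median was 0.01. Rpl10 lost its call in 9 of 14 alternatives and Rpl29 in 8, library totals among them for both, while Rplp0 kept its call in each. None of 69 oxidative phosphorylation genes and none of 37 cell cycle genes was called. Among the marker lists of other cells, Itgam was the 1 called of 21 for monocytes and macrophages, and Ctsg and Retnlg were the 2 called of 16 for neutrophils, all lower. Itgam is also counted in the list of Fc receptor chains and surface receptors. Alox15, counted above with the identity genes, was the 1 called of 9 for eosinophils. No member was called of 10 for natural killer and T cells, 14 for dendritic and B cells, 13 for erythroid and progenitor cells or 6 for mast cells. With libraries scaled by their totals, Itgam, Ctsg and Retnlg did not pass. Itgam was also lost without KO 1 h B, Retnlg without KO 1 h B or KO 2 h A, and Ctsg without KO 1 h A, KO 1 h B or KO 2 h A.

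**Figure D3:**
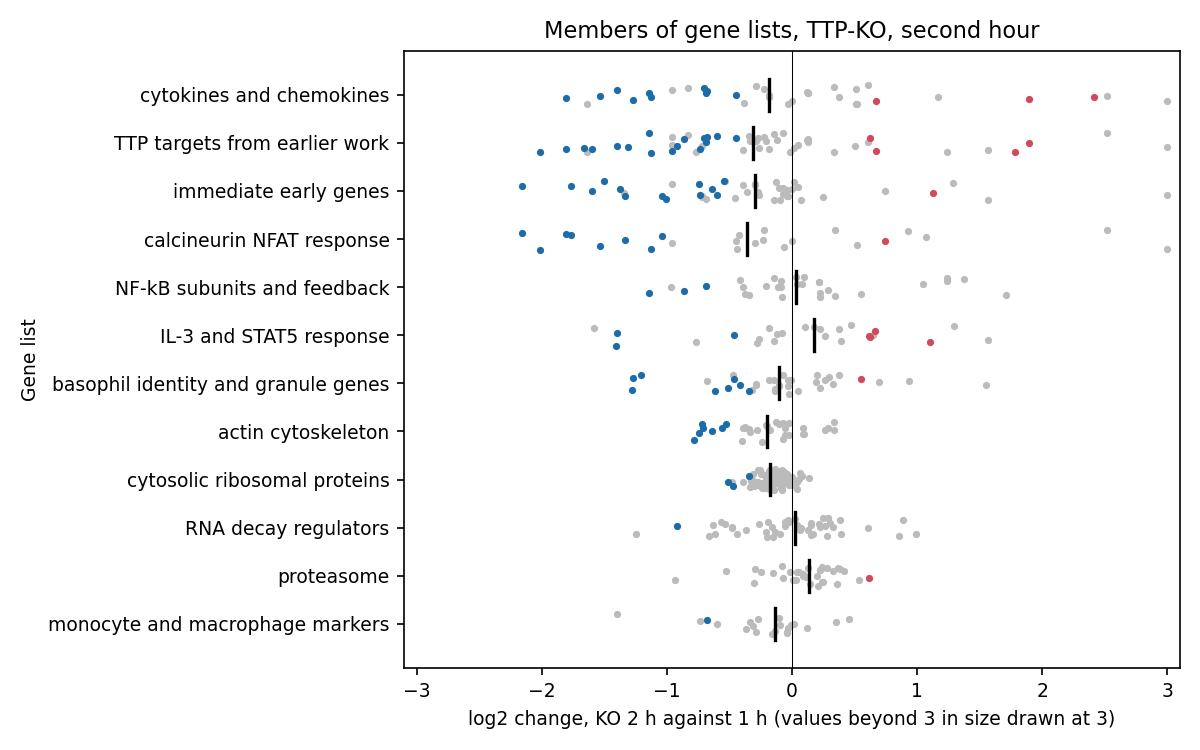
Log2 change from 1 to 2 h in TTP-KO (x axis) of every tested member of 12 gene lists (rows); blue members were called lower, red higher, grey neither, and black bars are list medians. The cytokine, TTP target, immediate early and NFAT lists hold most of the blue points but share members, so some genes are drawn more than once. The ribosomal list is narrow around its median of -0.17.

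Set beside the same hour in WT, most of these changes had the same direction. WT basophils had 272 genes called lower (2.10% of those tested) and 90 called higher (0.696%); the 2 genotypes share no libraries. Called lower in both were 158 genes, 58.3% of the TTP-KO list and 58.1% of the WT list. Called higher in both were 39, 32.8% of the TTP-KO list and 43.3% of the WT list, and no gene was called in opposite directions. Of the 271 genes lower in TTP-KO, 267 were below 0 in WT, and of the 119 higher, 109 were above 0. Egr3, for example, had a log2 change of -2.11 in WT against -2.15 in TTP-KO, Ccl3 -0.67 against -0.69, and Csf1 -1.15 against -1.27. List medians in WT were -0.26 for cytokines and chemokines, -0.50 for immediate early genes and -0.78 for calcineurin and NFAT. They were -0.31 for cytosolic ribosomal proteins (15 called lower), -0.18 for actin, -0.11 for identity and granule genes and 0.13 for IL-3 and STAT5.

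The difference between the genotypes in this hour was tested directly. By edgeR, 0 of 12936 genes were called (0%), 717 had an unadjusted p under 0.05 (5.54%), and DESeq2 called 75, of which 42 moved more upward and 33 more downward in TTP-KO. The smallest edgeR adjusted p was 0.255, shared by Il4, Il6, Tnf and Tep1. At the unadjusted threshold stood 9 of the 35 cytokines and chemokines, 12 of the 52 TTP targets and 8 of the 36 identity and granule genes. These lists share members, Osm among them, and so are not separate results. Other lists ran from 0 of 30 (NF-kB) and 0 of 47 (RNA decay), through 2 of 45 (immediate early), to 5 of 24 (calcineurin and NFAT). For the genes called in TTP-KO, the 95% interval of the genotype difference reached a median of 0.50 to each side on the log2 scale.

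Il4 had a smaller measured fall in TTP-KO than in WT, a difference that did not pass the test. In WT it was at 3923, 2767 and 2894 CPM at 1 h and 1417, 1858 and 1729 CPM at 2 h, a log2 change of -0.94 (edgeR adjusted p = 7.38e-08), against -0.22 in TTP-KO. The difference of 0.71 (95% interval 0.39 to 1.04, unadjusted p = 5.08e-05) had an edgeR adjusted p of 0.255, and 5 of 20 alternative settings called it (0.000299 to 0.789 over all of them). Those were no filter on low counts, DESeq2, and the fits without WT 1 h B, without WT 2 h B, and without the 2 smallest libraries (KO 4 h B and C). Il13 leaned the same way, from 304, 294 and 324 CPM to 57.8, 121 and 84.3 CPM in WT, a difference of 0.68 (0.13 to 1.23) with an edgeR adjusted p of 0.804, called in none of 20. Hdc, not called in TTP-KO, was called lower in WT (log2 change -0.44, edgeR adjusted p = 0.000892). Its difference of 0.41 (0.16 to 0.66) had an edgeR adjusted p of 0.646.

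Tnf and Il6 leaned the other way. Tnf was at 218, 200.2 and 202 CPM in WT at 1 h and 131, 96.5 and 101 CPM at 2 h, a log2 change of -0.92 against -1.81 in TTP-KO. That difference was -0.89 (-1.30 to -0.47; edgeR adjusted p = 0.255, with a range of 0.00258 to 0.759 over 20 alternatives). It was called in 4 of them, the same as for Il4 apart from the fit without WT 1 h B. Il6 in WT was at 2132, 1832 and 1929 CPM and then 1980.2, 2056 and 2198 CPM, with overlap, so that its log2 change was 0.08 there and -0.45 in TTP-KO. The difference of -0.53 (-0.77 to -0.29) had an edgeR adjusted p of 0.255, and 2 of 20 alternatives called it, DESeq2 and the fit without KO 4 h B and C (0.000142 to 0.464). Osm had log2 changes of 0.36 in WT and -0.19 in TTP-KO, neither called. That difference of -0.55 (-0.87 to -0.23) had an edgeR adjusted p of 0.559. It was called in 2 of 20 alternatives, the fits without WT 2 h B and without KO 4 h B and C (0.0246 to 0.831 over all of them). Il1b rose in both genotypes, by 1.23 in WT and 0.67 in TTP-KO on the log2 scale (difference -0.56, edgeR adjusted p = 0.726), and Ptgs2 fell in both, with log2 changes of -1.44 and -2.01 (difference -0.57, edgeR adjusted p = 0.71). The Ptgs2 difference was called in 1 of 20 alternatives, the fit without KO 4 h B and C (edgeR adjusted p = 0.0246; 0.0246 to 1 over all of them).

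**Figure D4:**
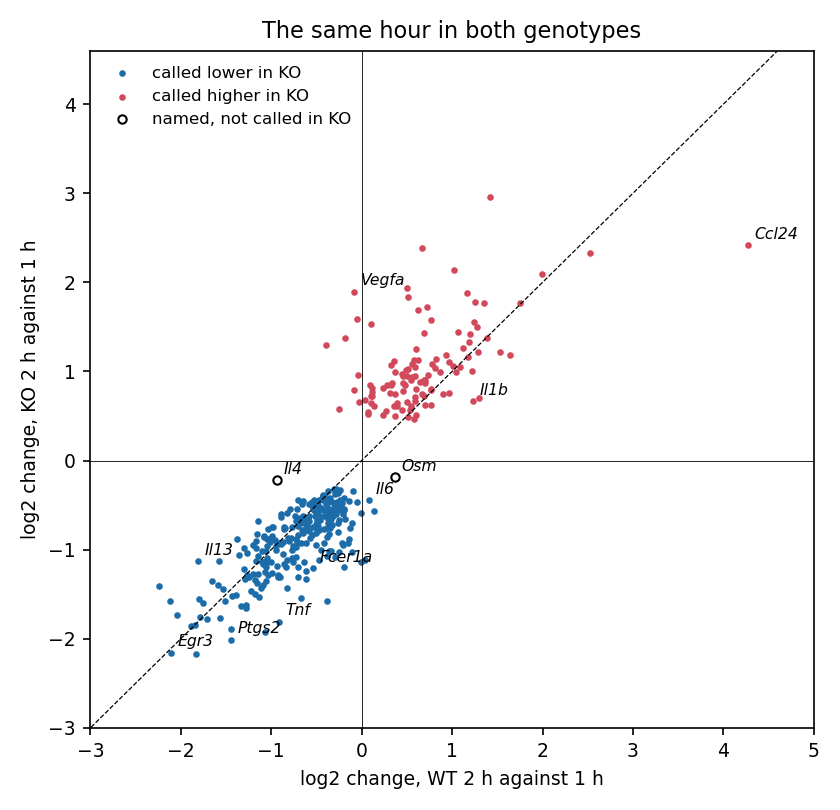
Log2 change from 1 to 2 h in WT (x axis) against TTP-KO (y axis) for genes called in TTP-KO with a mean level of at least 1 CPM there, blue lower and red higher; open circles are named genes not called in TTP-KO, the dashed line marks equal change, and genes beyond the axes are not drawn. Nearly all points share their sign in both genotypes; Il4 lies above the line, and Tnf and Il6 below it.

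Over the whole chase the second hour was one stretch of a longer course. Il4 in TTP-KO stood at 3556, 2655 and 3531 CPM at 0 h, was higher at 1 and 2 h, and stood at 1373, 1053 and 1096 CPM at 4 h. Tnf was at 849.5, 736 and 875 CPM at 0 h and 90.0, 67.3 and 77.5 CPM at 4 h, and Ptgs2 at 4364, 4561 and 4625 CPM and 243, 178 and 257 CPM, so each was lower at every later time. Tnfrsf9 had 2.50, 1.29 and 5.39 CPM at 0 h and 134, 169 and 160.3 CPM at 4 h, above all of its 2 h libraries. At 2 h the TTP-KO libraries still exceeded every WT library of that time for Il4, Il13, Il6, Tnf, Ccl3 and Ptgs2, as a description of levels with no test.

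**Figure D5:**
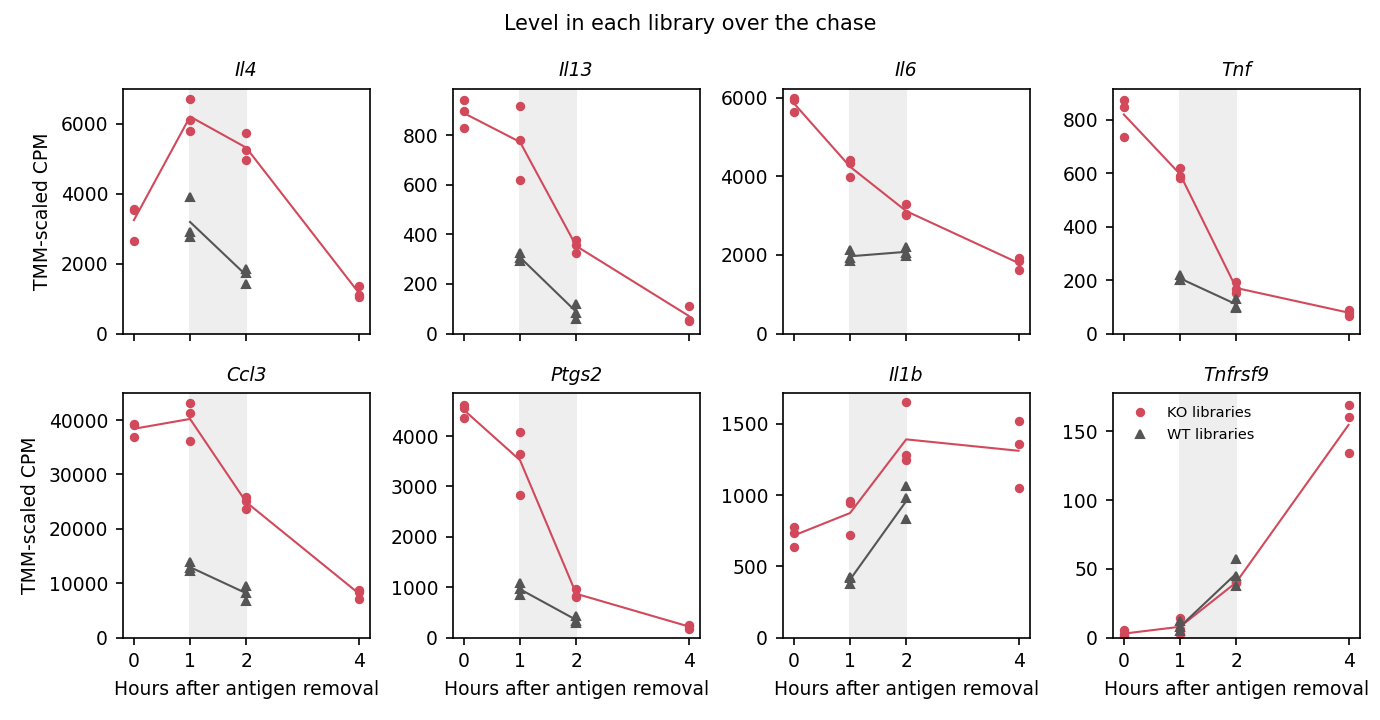
Level (TMM-scaled CPM) of 8 genes in each TTP-KO library at 0, 1, 2 and 4 h (red circles, lines through means) and in each WT library at 1 and 2 h (grey triangles); the shaded band is the second hour. Tnf, Il13 and Ptgs2 drop across the band in TTP-KO, Il4 stays near its 1 h level, and Tnfrsf9 is highest at 4 h.

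The AU-rich sites printed above were counted over all genes. Of 12734 tested genes with an annotated 3' UTR, 30.7% held TATTTAT and 8.38% held TTATTTATT on the mRNA strand, where each nonamer also contains a heptamer. Among the 270 genes lower in TTP-KO at 2 h with such a UTR, the shares were 39.3% and 13.0%, and among 118 higher genes 31.4% and 9.32%. Of 1067 genes with a nonamer, 3.28% were called lower, against 2.12% of all genes with a 3' UTR, and their median change was 0.00. Their median 3' UTR was longer, 2388 bases against 1183. Among UTRs of 1000 to 2000 bases, 3.69% of 271 genes with a nonamer (10 genes) and 2.23% of 2154 genes without TATTTAT were called lower. In the same 2 groups, 1.85% (5 genes) and 1.21% were called higher. Over all 1067 genes with a nonamer, 1.03% were called higher, against 0.927% of all genes with a 3' UTR. The counts are small and were not tested, so no difference between the groups is read from them. These shares are descriptions; Tnf holds 5 nonamers, Pim1 3 and Cxcl2 4, and those genes fell, rose and fell.

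In RefSeq promoter windows (250 bases before to 50 after the start, GRCm38.p6), which matched 10039 of the tested genes, the AP-1 motif TGANTCA was present in 5.14% of all, 8.93% of 224 lower and 8.05% of 87 higher genes. The cAMP response element TGACGTCA was present in 3.19%, 1.79% and 0%. Both strands were searched, and both motifs are their own reverse complement. A match says only that the letters are in the window.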

How the data were processed

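The 3' tag libraries were prepared from alkylated RNA with a QuantSeq forward kit, per the labels' protocols. Per the submitters' processing notes, tools were STAR 2.7.10a, cutadapt 3.5 and SAMtools, with GRCm39 as build. The deposited table gives estimated counts per gene and library (15737 genes; 12.8% of values were not whole), rounded here; the counter that the authors used is not given in the sources used here. Its 24 count columns carry a genotype, time and letter, and were mapped to groups only; the other 144 columns of per-library values were not used here.

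Counts were tested with edgeR 4.0.16 (quasi-likelihood, TMM, filterByExpr, 12936 genes kept, R 4.3.3) in 1 fit of all 24 libraries with 8 group means; contrasts were 2 h minus 1 h in TTP-KO, in WT, and their difference. Calls are at a Benjamini-Hochberg adjusted p under 0.05 over all genes. Alternatives were other scaling and filters, DESeq2 1.42.0, a fit of only the groups compared, each library left out, and, chosen after seeing the data, a fit without the 2 smallest libraries and a block on the column letter. The tests were also run on counts simulated from the spread that edgeR itself fitted. Such a run checks the code and cannot show how well calls hold in these libraries. Read totals ran from 8839260 to 25372890. Libraries of 1 group differed far more than read counting alone would give, with a chi-square per degree of freedom of 29.6 to 77.8 between pairs. Precision thus rests on that spread and not on read totals alone. No spike-in is named, so levels are relative.

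The step, its 30 gene lists and 17 always-named genes were chosen with earlier results of these data known. Other named genes were the 12 largest changes per direction among called genes with separated libraries and at least 10 CPM, up to 4 called members per list, up to 8 per direction for the genotype difference, and the 6 most abundant called per direction. The markers, Cebpb, Bcl6, Fos, Jun, Nfkbia and Zc3h12a were named after their values were seen. Sites were read from GENCODE M21 transcripts (GRCm38) and promoters from RefSeq. One gene that the rule names is not reported here.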

Additional observations from a re-analysis of the deposited data

How the results depend on the processing

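In TTP-KO the higher calls were 119, with 307 when libraries were scaled by totals alone, 266 by DESeq2 and 76 to 104 when each library was left out; the lower calls were 271, with 146, 425 and 199 to 238. Of the 390 called genes, 265 remained with library totals, 383 by DESeq2 and 389 in the fit without KO 4 h B and C. In WT the higher calls were 90, with 201 by totals, 218 by DESeq2, 147 without KO 4 h B and C and 55 to 98 in the leave-outs, and the lower calls were 272, with 140, 429, 173 in the fit of only the groups compared and 178 to 314. WT 2 h A was the library whose loss gave 55 and 178, and KO 2 h B the one that gave 76. The genotype difference had 0 calls each way, with 8 higher and 3 lower with no filter on low counts, 42 and 33 by DESeq2, 6 and 6 without KO 4 h B and C, and 0 to 15 and 0 to 3 in the leave-outs; leaving out WT 2 h B gave 18 calls in all, among them Il4, Tnf and Osm. Some log2 changes that missed the test changed sign. With library totals, Plaur and Gata2 stood at 0.15, Hdc at 0.13, Jun at 0.092, Nfkbia at 0.082 and Mcpt8 at 0.026. In the leave-outs Plaur ran from -0.072 to 0.042, Zfp36 from -0.42 to 0.0073, Hdc from -0.10 to 0.0072, Jun from -0.19 to 0.021 and Gata2 from -0.058 to 0.044. The cause of these shifts was not tested. Of the 22 list medians below 0, 14 were at or above 0 with library totals. Of 77 named genes called in TTP-KO, 52 kept their call and direction in all 14 alternatives. A replicate block on the column letter (A, B, C), chosen after seeing the data, gave 127 higher and 267 lower calls in TTP-KO (376 of the 390 remained), 96 and 283 in WT, and 0 and 0 for the genotype difference. Nothing ties the letters to the labels' replicate numbers. Across genes, deviations from the group means correlated at most 0.074 between libraries with the same letter and at most 0.081 between those with different letters. Values of many genes varied widely between libraries of 1 group, so these correlations cannot show whether the letters mark a shared culture or batch. Of the named genes the block ended 1 call, Psmd7, a proteasome subunit gene (adjusted p = 0.057). The spread at low levels limits the test: values near 10 CPM varied widely between libraries of 1 group.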

Other observations

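Between 1 and 2 h in TTP-KO, of 37 genes of the unfolded protein and integrated stress responses, 4 fell (Dnajb9, Hsp90b1, Hspa5 and Slc7a11) and Sesn2 rose, with a median of -0.16 that became 0.00 when scaled by library totals. Over all genes tested, 2.09% were called lower and 0.920% higher. Hspa5, the chaperone BiP of the endoplasmic reticulum, went from 1592, 1372 and 1465 CPM to 1253, 1006 and 993 CPM (log2 change -0.45 ± 0.10, edgeR adjusted p = 0.0058), and Sesn2, a stress-induced regulator of growth signalling, from 26.0, 18.4 and 22.2 CPM to 52.7, 51.6 and 51.4 CPM (log2 change 1.22 ± 0.28, edgeR adjusted p = 0.00548). Hspa5 missed the test with library totals and without KO 1 h A, KO 2 h B or KO 2 h C, and Sesn2 without KO 1 h B.

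Of 24 glycolysis genes, Hk2 rose and Gpi1 and Pfkfb3 fell. Gpi1 missed the test with library totals, in the fit of only the groups compared, and without KO 1 h C or KO 2 h A. Hk2, the inducible hexokinase, went from 71.8, 49.1 and 89.0 CPM to 149, 155 and 166 CPM, with all 2 h libraries higher (log2 change 1.16 ± 0.17, edgeR adjusted p = 3.27e-06). Pfkfb3, which sets the level of the glycolytic activator fructose 2,6-bisphosphate, went from 149, 164 and 153 CPM to 64.7, 69.3 and 81.2 CPM, with all 2 h libraries lower (log2 change -1.12 ± 0.21, edgeR adjusted p = 0.000367).

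Among called genes, 6 had 0 reads in all 3 libraries of 1 time. H2bc18, Dhodh, Pcolce2, Lynx1 and Tfcp2 had none at 1 h. Their mean levels at 2 h were only 2.48 CPM (Lynx1) to 3.91 CPM (Pcolce2), which is 39.7-fold to 62.8-fold above a floor of 3 reads over the group. Acy1 had none at 2 h and a mean of 3.33 CPM at 1 h, 57.2-fold above that floor. The floor leaves out the spread between libraries, which was wide at low levels, so these folds are not lower bounds.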
